A study of Homo sapiens with 24 samples.

Results

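The comparison described here is between IMR90 human fibroblasts held for 8 h in 4-hydroxytamoxifen (4-OHT) and untreated cells of the same line. It rests on the 3 arrays of the 8 h time point and the 3 arrays of the 0 h control, 6 of the 24 arrays of the study, chosen by their titles and paired by the biological batch letters A, B and D that both groups carry. All cells, the untreated ones included, expressed ER:RAS-G12V, an oncogenic RAS joined to the hormone-binding part of the estrogen receptor and switched on by 4-OHT. The 8 h cells received 100 nM 4-OHT, and the 0 h cells received none. IMR90 is a strain of normal fibroblasts from fetal lung that enters senescence when oncogenic RAS is kept active. The study followed the cells over 8 time points from 0 h to 8 d on Illumina human-6 v2 BeadChips, which measure total RNA as the fluorescence of 48701 probes.

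Some limits hold for all results. The groups differ in 4-OHT itself as well as in RAS activity, and untreated cells were sampled at 0 h, so the drug, the fused receptor, active RAS and 8 h of further culture cannot be told apart. Cells had been passaged on the day before harvest. In bulk RNA, fewer cells with a transcript and less transcript per cell cannot be told apart. The labels do not say which promoter drives the construct or which RAS gene it holds; ESR1, whose probe may not match the fused part, was above background on 0 of 24 arrays. HRAS stood at log2 intensities of 9.32, 9.35 and 9.21 at 0 h and 9.28, 9.27 and 9.34 at 8 h in batches A, B and D. These overlap, and the difference was 0.00 ± 0.13 (SE; 95% interval -0.27 to 0.27).

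RAS proteins relay signals from growth factor receptors. Active RAS binds RAF kinases, which activate MEK and then ERK, and ERK switches on immediate early transcription factors such as EGR1, followed by delayed targets that include growth factors, proteases and phosphatases that turn ERK off again. A second arm runs through PI3-kinase and AKT, which hold FOXO transcription factors outside the nucleus and keep mTOR active. In fibroblasts such signals first drive growth and only over days lead to arrest.

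The 6 arrays were alike in overall signal. On each, about 28 percent of probes were above background (27.8 to 28.0%), and 10970 genes were above it on at least 3 of the 24 arrays and were tested. Fibroblast identity was seen in 16 of 18 marker genes, COL1A1, COL3A1, VIM and THY1 among them, while TBX4 and TBX5 were below background. Of the epithelial, endothelial and immune markers, 5 of 14, 2 of 11 and 2 of 12 were above background on any of the 6 arrays and 0 were called at 8 h by limma. The summed linear intensity of the fibroblast list ran from 60935 to 67051 at 0 h and from 55618 to 60162 at 8 h, lower without overlap; its part in the results was not tested. The sums of the others ran from 1823 to 2060 at 0 h and 2047 to 2259 at 8 h for the epithelial list, from 1167 to 1367 and 1128 to 1134 for the endothelial list, and from 1580 to 1706 and 1667 to 1749 for the immune list.

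After 8 h, 623 genes differed from untreated cells in limma's moderated test with batch as a block (adjusted p under 0.05, called from here on), which is 5.68% of the genes tested. Of these, 292 were higher (2.66%) and 331 lower (3.02%). Changes were mostly modest: 20 genes were at least 2-fold higher and 12 at least 2-fold lower, and the smallest called change was 0.26 on the log2 scale. All 623 changed the same way in the 3 batch pairs, against 47.7% of all genes. In 594 of them the 3 arrays of one group lay wholly above the 3 of the other, against 25% of all genes. The test that called these genes used the same arrays and batches, so both counts largely follow from the choice. They are a description and no separate support. The median change of all tested genes was -0.01. At an unadjusted p under 0.05 there were 2091 genes. Of 88 called genes followed through 21 alternatives, 66 lost their call without the batch A arrays at all times and 22 kept it in all. Below, a call lost without a batch means without its arrays at all times. Without batch A among the arrays of 0 h to 24 h only, 21 of the 88 calls were lost. The median absolute change of the 623 genes was 0.463 in batch A, 0.491 in B and 0.525 in D. Why most calls were lost without batch A at all times was not tested.

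**Figure D1:**
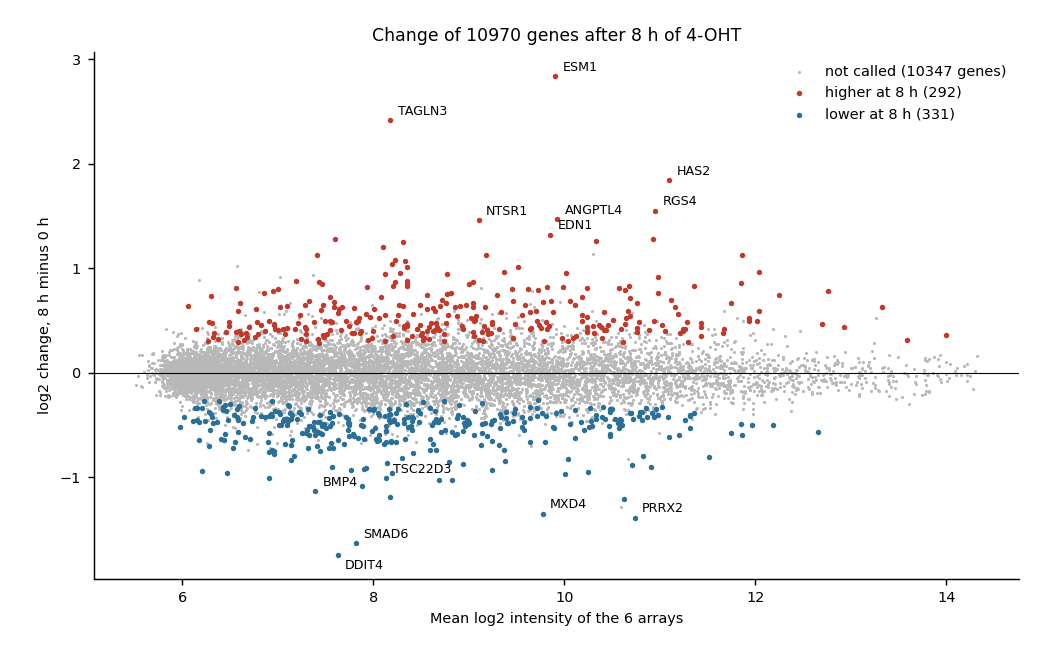
Each point is 1 of 10970 genes. The x axis is the mean log2 intensity of the 6 arrays and the y axis the log2 change from 0 h to 8 h. Red points (292) were called higher and blue points (331) lower; ESM1 stands at 2.84 and DDIT4 at -1.74.

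The largest rise was that of ESM1, which encodes endocan, a secreted proteoglycan best known from endothelial cells. Its log2 intensity was 8.69, 8.94 and 7.83 at 0 h in batches A, B and D and 11.30, 11.68 and 11.01 at 8 h. Every 8 h array lay over 2 log2 units above every 0 h array, a 7.16-fold rise (log2 2.84 ± 0.24 SE, adjusted p = 4.54e-07). TAGLN3, a transgelin-family actin-associated protein known from neurons, went from 7.14, 7.30 and 6.47 to 9.60, 9.43 and 9.12. That is a 5.33-fold rise (log2 2.41 ± 0.16, adjusted p = 1.47e-08) with no overlap between the groups. ESM1 was not called at 2 h (0.24) and stood 2.60 higher at 8 h than at 2 h (adjusted p = 4.54e-06), whereas TAGLN3 had already been called at 2 h (1.13).

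**Figure D2:**
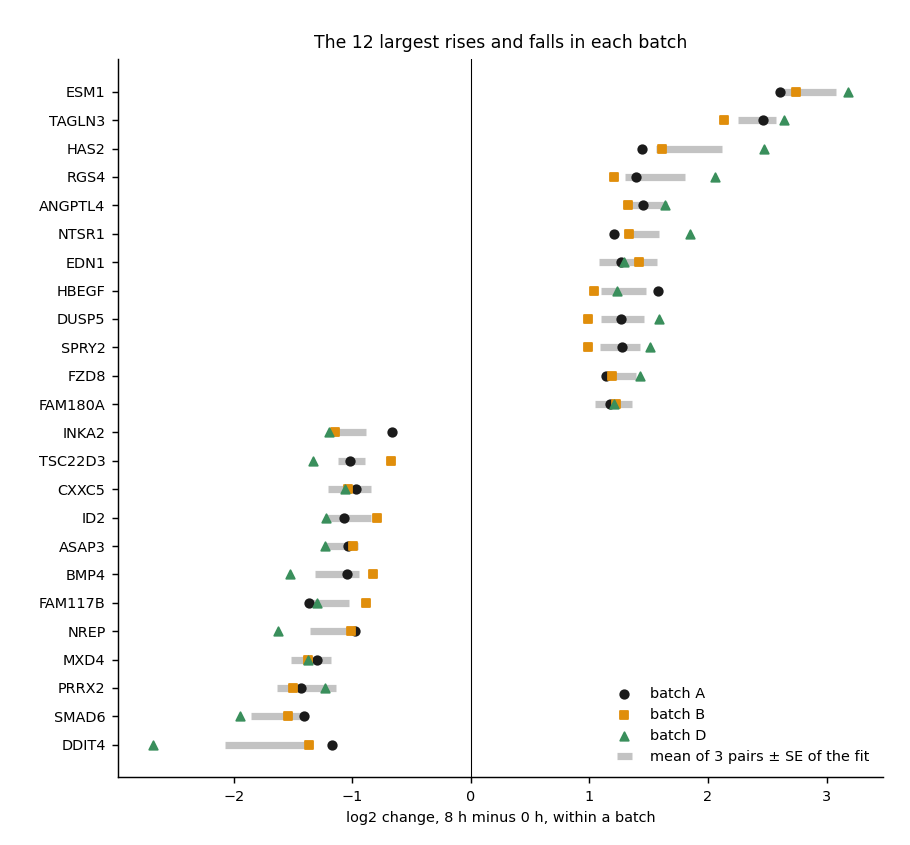
The log2 change from 0 h to 8 h within each batch (points) is shown for the 12 largest rises and the 12 largest falls among called genes, with the mean of the 3 pairs ± the SE of the fit as grey bars. Each of the 24 genes changed in its direction in all 3 batches, and DDIT4 has its widest spread through batch D.

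Secreted signals and receptors made up much of the rest of the 12 largest rises. EDN1, the vasoconstrictor peptide endothelin-1, moved from 9.34, 9.30 and 8.93 to 10.61, 10.72 and 10.22 (log2 1.32 ± 0.24, adjusted p = 0.00226). ANGPTL4, a secreted inhibitor of lipoprotein lipase, moved from 9.46, 9.18 and 8.93 to 10.91, 10.50 and 10.57 (1.47 ± 0.18, adjusted p = 5.59e-05). Neither gene's groups overlapped, but a dimmer ANGPTL4 probe rose by only 0.20 (adjusted p = 0.507 over all kept probes), and the mean of both ANGPTL4 probes gave 0.84. NTSR1, the neurotensin receptor, rose from 8.54, 8.49 and 8.09 to 9.74, 9.82 and 9.95 (1.46 ± 0.13, adjusted p = 7.07e-07). FZD8, a Wnt receptor, rose by 1.25 ± 0.14 (adjusted p = 3.01e-05), and FAM180A, a gene of no settled function, by 1.20 ± 0.16 (adjusted p = 0.000105). RGS4, which speeds the inactivation of G proteins, stood at 10.34, 10.64 and 9.54 at 0 h and at 11.73, 11.85 and 11.60 at 8 h (1.55 ± 0.25, adjusted p = 0.000666). Without the batch A arrays at all times, the calls of EDN1 and RGS4 were lost (adjusted p = 0.106 and 0.0520), and without batch B that of EDN1 (adjusted p = 0.0610).

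Several genes that report on ERK activity rose. Of 26 tested members of a list of ERK output genes, 10 were called higher (38.5%, against 2.66% of all genes) and 0 lower. The median change over all 26 was 0.42, and the other 16 did not pass. DUSP5, a nuclear phosphatase that inactivates ERK, read 10.42, 10.71 and 9.75 at 0 h and 11.69, 11.69 and 11.34 at 8 h. SPRY2, an inhibitor of receptor signalling to RAS, read 9.92, 10.10 and 9.09 and then 11.20, 11.08 and 10.60. Both sets were fully apart, with rises of 1.28 ± 0.18 (adjusted p = 0.000212) and 1.26 ± 0.17 (adjusted p = 0.000125). SPHK1, which makes sphingosine 1-phosphate, rose by 0.95, PLAUR, the urokinase receptor, by 0.81, and EMP1, a membrane protein, by 0.78. Without batch A, SPRY2 (adjusted p = 0.0503), SPHK1 (0.0695) and PLAUR (0.266) missed the threshold, and the mean of the PLAUR probes gave 0.51. Further feedback genes did not pass: SPRY1, a relative of SPRY2, gave -0.34, DUSP6, a cytoplasmic ERK phosphatase, 0.77 (adjusted p = 0.131), DUSP4 0.44 (0.0691) and SPRY4 0.55 (0.206). For DUSP6, DUSP4 and SPRY4 the 8 h and 0 h arrays did not overlap, which held for 25% of all genes. All 3 passed where only the arrays of 0 h to 24 h entered the fit (adjusted p = 0.0185, 0.00747 and 0.0428). Dimmer DUSP4 and SPRY4 probes gave -0.08 and -0.01 (adjusted p = 0.865 and 0.980 over all kept probes). The means of their probes were 0.18 and 0.27.

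The genes of the pathway itself did not pass. Of 16 tested RAS, RAF, MEK and ERK genes, 0 were called in either direction, with a median of 0.03 and a range from -0.46 to 0.25.

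Immediate early transcription factors were mostly past their 2 h level by 8 h. Of 23 tested, 9 were called higher at 2 h, against 0.474% of all genes. At 8 h 4 were called higher and 3 lower (30.4% together, against 5.68% of all genes). In the direct test of 8 h against 2 h, in which 704 genes were called (6.42%, with 3.05% higher and 3.36% lower at 8 h), 12 of the 23 were lower at 8 h and 0 higher. EGR1, a zinc finger factor induced by ERK, stood at 9.72, 9.92 and 9.81 at 0 h, at 11.42, 11.39 and 11.38 at 2 h and at 10.58, 10.08 and 10.98 at 8 h. Its 8 h arrays lay between the other groups, 0.73 ± 0.21 above 0 h (adjusted p = 0.0403) and at -0.85 against 2 h (adjusted p = 0.0164); the first call was lost without batch A (0.466) or batch D (0.142). BHLHE40, a repressor of the circadian clock, rose by 1.83 at 2 h, and its 8 h value of 0.63 did not pass (adjusted p = 0.0746). FOSB, KLF10, JUN and IER3 were called at 2 h (1.13, 1.11, 0.75 and 0.92), and at 8 h their changes of 0.13, 0.26, 0.21 and 0.22 did not pass. MYC, the growth-promoting transcription factor, was called at 2 h (0.53) and stood 0.65 ± 0.10 above untreated cells at 8 h (adjusted p = 0.000433). JUND, a JUN-family member often seen as a brake on proliferation, went from 12.19, 12.16 and 12.14 to 11.56, 11.60 and 11.53 (-0.60 ± 0.10, adjusted p = 0.000711). ATF3 (-0.59) and KLF2 (-0.50) were the other members called lower, and IER5 (0.40) and TRIB1 (0.69) the other members called higher. Without batch A, MYC (adjusted p = 0.0807) and JUND (0.112) were lost, and ATF3 was lost in 12 of 21 alternatives.

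Several growth factors and a receptor were higher at 8 h. Of 22 tested genes of a list of EGF receptor ligands, receptors and other growth factors, 5 were called higher and 1 lower. Together that is 27.3%, against 5.68% of all genes, and the list's median was 0.32. HBEGF, a membrane-bound ligand of the EGF receptor, had intensities of 6.92, 7.25 and 6.69 at 0 h and 8.50, 8.29 and 7.92 at 8 h (1.28 ± 0.19, adjusted p = 0.000319). The groups were apart, and the call was lost without batch A (1.14, adjusted p = 0.0817). EGFR, its receptor, rose by 0.55 (adjusted p = 0.00118), FGF5, a fibroblast growth factor, by 0.76, and STC1, a secreted glycoprotein hormone, by 0.96 (adjusted p = 0.00144). VEGFC, a growth factor of lymphatic vessels, went from 10.66, 10.65 and 10.25 to 11.49, 11.53 and 11.30 (0.92 ± 0.12, adjusted p = 7.71e-05). FGF7, a growth factor for epithelium, was the member called lower (-0.42). VEGFA was measured at 0.01 with an interval from -0.29 to 0.31.

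Of 14 tested genes of hyaluronan synthesis, binding and breakdown, 2 were called, both higher (14.3%, against 2.66% of all genes). The list's median was 0.03. HAS2, a synthase of the matrix sugar hyaluronan, read 10.53, 10.60 and 9.41 at 0 h and 11.97, 12.21 and 11.87 at 8 h. All 8 h arrays were above all 0 h arrays, a 3.58-fold rise (log2 1.84 ± 0.28, adjusted p = 0.000348), and the 3 dimmer HAS2 probes rose by 1.12, 1.88 and 1.08 (adjusted p = 0.0175, 0.00108 and 0.00212 over all kept probes). HAS2 was not called at 2 h (0.45), was 1.39 higher at 8 h than at 2 h (adjusted p = 0.00479) and stood at 1.92 at 24 h. TNFAIP6, whose secreted product TSG-6 links proteins to hyaluronan, went from 7.89, 7.82 and 7.68 to 8.68, 9.12 and 8.79 (1.07 ± 0.18, adjusted p = 0.00102). CEMIP, a protein needed for hyaluronan breakdown, gave -0.82, which did not pass (adjusted p = 0.348), and CD44, the hyaluronan receptor, gave -0.02. CEMIP did pass where only the arrays up to 24 h were fitted (adjusted p = 0.0151). The TNFAIP6 promoter is shown as it holds, from base -129 counted from the start, the AP-1 motif TGANTCA, bound by JUN and FOS family proteins; the capitals mark the motif in the 250 bases before the start (RefSeq, GRCh38.p14, chr2:151357342-151357591, plus strand).
TNFAIP6: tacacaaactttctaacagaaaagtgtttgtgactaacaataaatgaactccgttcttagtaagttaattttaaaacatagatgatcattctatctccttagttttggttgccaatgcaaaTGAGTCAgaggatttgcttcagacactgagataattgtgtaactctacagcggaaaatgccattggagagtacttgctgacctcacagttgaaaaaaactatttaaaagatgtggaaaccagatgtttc

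That motif, searched on both strands, was present in 11 of the 230 promoters of genes called higher that had an entry (4.78%), in 7 of 276 called lower (2.54%), in 4.11% of 9043 tested genes with an entry and in 6.60% of all 27305 promoters. These shares are a description of the letters in these windows and carry no test.

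Several secreted proteases moved with the growth factors. Of 22 tested matrix proteases and plasminogen system genes, 5 were called higher (22.7%, against 2.66% of all genes) and 0 lower (median 0.12). The 5 were PLAUR (0.81), MMP1, an interstitial collagenase (0.63), ADAMTS6 (0.61), ADAM19 (0.44) and PLAU, which encodes urokinase (0.37). MMP1 read 13.19, 12.96 and 12.89 at 0 h and 13.66, 13.43 and 13.84 at 8 h, near the top of the scale (4.14 to 14.5), and the groups did not overlap. PLAUR, MMP1, ADAMTS6 and ADAM19 were each lost in at least 6 of 21 alternatives, the one without batch A among them; PLAU was not followed through the alternatives. Of 11 integrins 1 was called (9.09%, against 5.68% of all genes), ITGA2, a collagen-binding subunit, at 0.46.

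Collagens and other structural matrix genes were set against untreated cells as a list. Of 32 tested fibroblast extracellular matrix genes, 0 were called at 8 h by limma, with a median of -0.12. At 24 h 24 of the 32 were called lower against the same 0 h arrays, whereas 11.9% of all genes were. In the direct test of 8 h against 24 h, where 922 genes were called (8.4%, with 5.67% higher and 2.73% lower at 8 h), 21 of the 32 were higher at 8 h. COL1A1, the main chain of type I collagen, read 13.53, 13.54 and 13.72 at 0 h, 13.38, 13.28 and 13.38 at 8 h and 12.14, 11.96 and 12.40 at 24 h. The 8 h arrays were just below the 0 h arrays and 1.18 above those of 24 h (adjusted p = 3.43e-07). COL3A1 and COL4A1 stood at -0.21 and -0.23 at 8 h and were 1.46 and 1.39 higher than at 24 h. In the 13 smooth muscle genes MYOCD, a coactivator of serum response factor, was the 1 call, at -0.55 (7.69%, against 5.68% of all genes). Its call was lost without batch A (adjusted p = 0.150). Of the 13 genes, 6 were higher at 8 h than at 24 h.

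The largest fall at 8 h was that of DDIT4, which encodes REDD1, a stress-induced inhibitor of mTOR complex 1. Its intensities were 7.93, 8.20 and 9.35 at 0 h and 6.77, 6.84 and 6.67 at 8 h. The 8 h arrays lay close together and below all 0 h arrays, a 3.34-fold fall (log2 -1.74 ± 0.33, adjusted p = 0.00316). The 0 h array of batch D was more than 1 log2 unit above the other 0 h arrays: without it the change was -1.37 (adjusted p = 0.0454), without batch D at all times -1.27 (adjusted p = 0.000146), and without batch A -2.02 (adjusted p = 0.0865). At 2 h DDIT4 read 6.82, 6.64 and 8.43, a change of -1.20 that did not pass (adjusted p = 0.142), and at 24 h it had a called change of -1.03.

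Among other brakes of PI3-kinase and mTOR signalling PIK3IP1 was called. Of 22 tested genes of the mTOR complexes and their brakes, 0 were called higher and 2 lower, DDIT4 and PIK3IP1, which binds and restrains PI3-kinase (-0.75 ± 0.15, adjusted p = 0.00406). The list's median was -0.10, and 9.09% of it was called, against 5.68% of all genes. PIK3IP1 read 7.12, 7.11 and 7.78 at 0 h and 6.60, 6.52 and 6.64 at 8 h, with no overlap, and the call was lost without batch A (adjusted p = 0.105). Of 24 FOXO target genes, 0 were called higher and 3 lower (12.5%, against 3.02% of all genes), with a median of -0.22. The 3 were PIK3IP1, TP53INP1, a stress-induced regulator of autophagy and p53 (-0.72), and TXNIP, which inhibits thioredoxin and glucose uptake (-0.60). At 24 h 12 of the 24 were called lower, against 11.9% of all genes. TXNIP read 10.84, 10.78 and 10.71 and then 10.35, 10.06 and 10.11 (adjusted p = 0.0148), apart from each other; its call was lost without batch A (0.150) or batch B (0.120). The promoters of DDIT4 and TXNIP are printed as the leading fall and as the called FOXO target with a match to the FOXO motif TGTTTAC, marked in capitals and read here on the opposite strand, from base -124 (RefSeq, GRCh38.p14, chr10:72273674-72273923, plus strand, and chr1:145996580-145996829, minus strand).
DDIT4: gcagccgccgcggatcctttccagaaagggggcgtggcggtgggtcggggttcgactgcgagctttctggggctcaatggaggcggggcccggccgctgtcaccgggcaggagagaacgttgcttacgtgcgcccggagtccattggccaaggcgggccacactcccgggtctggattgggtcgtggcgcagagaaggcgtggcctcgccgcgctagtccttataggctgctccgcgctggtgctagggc
TXNIP: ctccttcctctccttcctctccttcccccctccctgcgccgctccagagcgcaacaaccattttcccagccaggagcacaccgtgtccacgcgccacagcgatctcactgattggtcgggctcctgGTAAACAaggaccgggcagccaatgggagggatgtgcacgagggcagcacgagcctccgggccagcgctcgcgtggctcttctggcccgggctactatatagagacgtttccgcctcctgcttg

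The DDIT4 window held none of the motifs searched, which were those of FOXO and AP-1 proteins given so far and those of MYC, SMAD and ETS proteins given further on. The FOXO motif was found in 4 of 230 promoters of genes called higher (1.74%), 6 of 276 called lower (2.17%), 1.79% of those of tested genes and 2.98% of all promoters.

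BMP signalling genes were among the largest falls. SMAD6, an inhibitor of BMP receptors and itself induced by BMP, read 8.55, 8.20 and 9.14 at 0 h and 7.14, 6.66 and 7.19 at 8 h. The sets were more than 1 log2 unit apart, a 3.10-fold fall (-1.63 ± 0.22, adjusted p = 0.000135). BMP4, a ligand, went from 7.73, 7.56 and 8.59 to 6.68, 6.74 and 7.06 (-1.13 ± 0.18, adjusted p = 0.000687). ID2, a dominant-negative helix-loop-helix protein induced by BMP, went from 9.33, 9.05 and 9.62 to 8.26, 8.26 and 8.39 (-1.03 ± 0.19, adjusted p = 0.00211). SMAD3, a transducer of TGF-beta, fell by 0.66 and SMAD9, a transducer of BMP, fell by 0.33. In all, 5 of 36 tested BMP and TGF-beta genes were called lower (13.9%, against 3.02% of all genes) and 0 higher, with a median of -0.09. ID1 (-0.51, adjusted p = 0.360) and SMAD7 (-0.11, 0.813), further targets of these pathways, did not pass. ID1 did pass where only the arrays up to 24 h were fitted (adjusted p = 0.0258), and a dimmer ID1 probe gave -0.04. SMAD7 at 8 h was at -0.87 against 2 h (adjusted p = 0.00502) and at 1.08 against 24 h (adjusted p = 0.000413). SMAD6 at 8 h was at -1.92 against 2 h (adjusted p = 9.36e-05). Without batch A the calls of BMP4 (0.0909), ID2 (0.162) and SMAD3 (0.143) were lost, that of SMAD6 was not.

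Among the remaining large falls were regulators of transcription. PRRX2, a homeobox factor of mesenchyme, dropped from 11.40, 11.18 and 11.71 to 9.97, 9.68 and 10.48 (-1.39 ± 0.25, adjusted p = 0.00162). Its relative PRRX1 was called in the opposite direction (0.47 ± 0.12, adjusted p = 0.0226), although a dimmer PRRX1 probe gave 0.10. TSC22D3, a glucocorticoid-induced regulator also called GILZ, dropped from 8.64, 8.57 and 8.71 to 7.62, 7.89 and 7.38 (-1.01 ± 0.11, adjusted p = 3.01e-05), and CXXC5, a zinc finger protein, gave -1.02 ± 0.18 (adjusted p = 0.00146). The other falls were those of NREP, a neuronal protein also made by fibroblasts in wounds (-1.21 ± 0.15, adjusted p = 5.68e-05), ASAP3, a GTPase-activating protein for ARF (-1.09 ± 0.14), and FAM117B (-1.18 ± 0.16). INKA2, an inhibitor of PAK4 kinase, went from 7.17, 7.32 and 7.72 to 6.51, 6.18 and 6.53 (adjusted p = 3.01e-05). A dimmer INKA2 probe gave -0.17 (adjusted p = 0.319), and the mean of the probes -0.59. Without batch A, PRRX2 (0.128), CXXC5 (0.0865) and FAM117B (0.0593) missed the threshold. Of the 16 fibroblast identity genes tested, PRRX1 was called higher and FOXF1 (-0.53) and TWIST1 (-0.49), mesenchymal transcription factors, lower. Together that is 18.8%, against 5.68% of all genes. All 3 calls were lost without batch A (adjusted p = 0.264, 0.252 and 0.167).

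**Figure D3:**
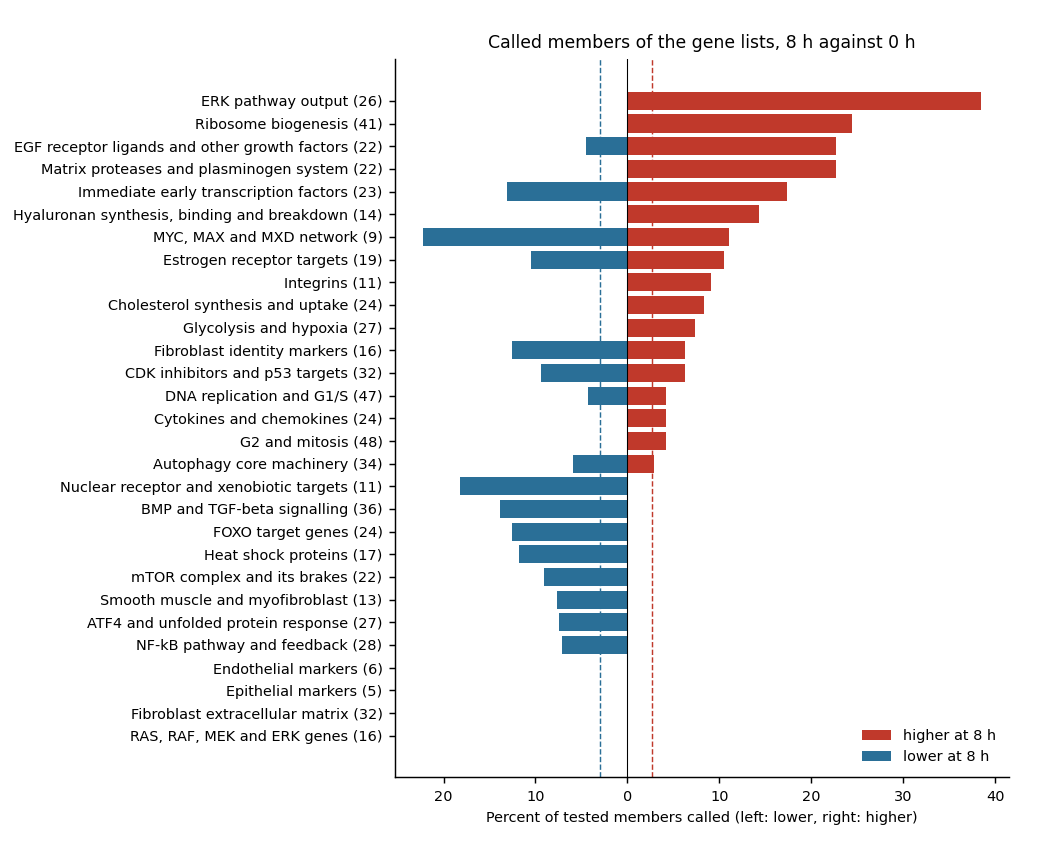
Bars give the percent of tested members (number in brackets) called higher, to the right in red, and lower, to the left in blue, for each list with at least 5 tested members. The dashed lines are the shares of all genes, 2.66% and 3.02%. The ERK output list reaches furthest to the right, with 10 of 26.

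The MYC network and ribosome production both held calls. MXD4, which competes with MYC for its partner MAX and represses growth genes, read 10.31, 10.15 and 10.87 at 0 h and 9.02, 8.78 and 9.50 at 8 h. All 8 h arrays were below all 0 h arrays (-1.35 ± 0.17, adjusted p = 5.28e-05) and the batch differences of -1.30, -1.37 and -1.37 were close. MXD3, a relative, fell by 0.50 (adjusted p = 0.00165), and its call was lost without batch A (0.0520) or batch B (0.118). MYC was the member called higher. In all, 3 of the 9 tested members were called (33.3%, against 5.68% of all genes). Of 41 tested ribosome biogenesis genes, 10 were called higher (24.4%, against 2.66% of all genes) and 0 lower, with a median of 0.31. LYAR, a nucleolar protein, went from 9.24, 9.02 and 8.90 to 9.88, 9.94 and 9.75 (0.80 ± 0.09, adjusted p = 3.01e-05). RRP12 (0.69) and BYSL (0.63), needed to mature the small subunit, and NOP16 (0.58), a nucleolar protein of the large subunit and a known MYC target, followed; the others were PNO1, DDX21, NIP7, MRTO4, URB2 and UTP4, between 0.33 and 0.56. At 2 h 0 of the 41 had been called by limma (median 0.05). In the direct test 6 were higher at 8 h than at 2 h, against 3.05% of all genes. At 24 h 19 were called higher, against 7.43% of all genes. Without batch A, RRP12 (0.0691), BYSL (0.0685) and NOP16 (0.292) were lost and LYAR was not. NOP16 was lost in 8 of 21 alternatives, with arrays of 9.06, 9.07 and 9.01 at 0 h and 9.62, 9.63 and 9.63 at 8 h that did not overlap.

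Promoters of MXD4 and NOP16 show the motifs searched for this group. In MXD4 the capitals mark the MYC and MAX motif CACGTG (E-box, from base -238) and GGCGCC, a motif bound by SMAD proteins (from base -102). In NOP16 they mark CCGGAAG, the motif of ETS factors, once on each strand (from bases -19 and -16, sharing letters). Both lie on the minus strand (RefSeq, GRCh38.p14, chr4:2262110-2262359 and chr5:176388599-176388848).
MXD4: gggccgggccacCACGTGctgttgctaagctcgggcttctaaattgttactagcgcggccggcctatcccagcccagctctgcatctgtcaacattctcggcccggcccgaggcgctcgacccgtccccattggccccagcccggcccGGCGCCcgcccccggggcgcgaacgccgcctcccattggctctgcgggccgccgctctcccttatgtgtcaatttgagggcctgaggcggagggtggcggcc
NOP16: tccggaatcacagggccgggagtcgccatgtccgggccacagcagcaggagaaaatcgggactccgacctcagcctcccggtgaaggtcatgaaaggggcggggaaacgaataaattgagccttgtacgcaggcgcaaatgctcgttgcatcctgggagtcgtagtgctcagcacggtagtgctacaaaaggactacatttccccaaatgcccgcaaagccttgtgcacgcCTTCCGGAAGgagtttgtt

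The E-box was in 8.26% of promoters of genes called higher, 9.78% of genes called lower and 8.78% of tested genes. The SMAD motif was in 23.9%, 27.9% and 25.3%. The ETS motif was in 34 of 230 promoters of genes called higher (14.8%), in 16 of 276 called lower (5.80%) and in 15.9% of tested genes. Among the 32 tested ribosome biogenesis genes with a promoter entry, 12 held the ETS motif (37.5%), 4 of the 8 called ones included. The E-box was in 2 of the 32 (6.25%), 1 of the 8 called ones included, and the NOP16 window held none.

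Cell cycle genes were called at 8 h at a share near that of all genes (5.68%), with 8.51% of the G1/S list and 4.17% of the mitosis list. Of 47 DNA replication and G1/S genes, 2 were higher, CCND1 (cyclin D1, 0.31) and E2F7, a repressor of the E2F family (0.49), and 2 lower, E2F2, an activator (-0.90 ± 0.14, adjusted p = 0.000433), and MCM6, a subunit of the replicative helicase (-0.41). The list's median was -0.16. E2F2 read 7.95, 7.96 and 8.11 at 0 h and 7.18, 6.77 and 7.38 at 8 h, below it on all arrays, and the call was lost without batch A (adjusted p = 0.0691). Of 48 G2 and mitosis genes, 2 were called higher, PLK1, a mitotic kinase (0.57), and UBE2C, a ubiquitin enzyme of mitotic exit (0.34), and 0 lower, with a median of 0.23. The median at 2 h had been -0.32 and that at 24 h was 0.43; these share the 0 h arrays. In the direct test 8 of the 48 were higher at 8 h than at 2 h, against 3.05% of all genes, and 0 lower. Among them were CENPA, the centromeric histone (1.21, adjusted p = 0.000484), and CCNB1, cyclin B1 (1.05, adjusted p = 0.00781). For PLK1 and UBE2C the 0 h and 8 h arrays overlapped, and the calls of CCND1, E2F7, PLK1 and UBE2C were lost in 8 to 13 of 21 alternatives.

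Of the inhibitors that enforce arrest in senescence, CDKN1A, CDKN2A and CDKN2B did not pass, CDKN2B narrowly. CDKN1A, encoding p21, gave -0.37 (adjusted p = 0.0816), CDKN2A, encoding p16 and ARF, 0.03 (0.954) and CDKN2B, encoding p15, 0.58 (0.0558). CDKN1A read 12.51, 12.49 and 12.68 at 0 h and 12.16, 12.07 and 12.35 at 8 h without overlap. It passed, as did CDKN2B, where only arrays up to 24 h were fitted (adjusted p = 0.0138 and 0.00242). A dimmer CDKN1A probe gave -0.03 (adjusted p = 0.958 over all kept probes), and the mean of the CDKN1A probes was -0.20. CDKN2B was called in 10 of 21 alternatives, another normalization (adjusted p = 0.0447) and median centring (0.0487) among them. Of 32 CDK inhibitors and p53 targets, 2 were called higher and 3 lower (15.6% together, against 5.68% of all genes). PMAIP1, which encodes the death factor NOXA, rose by 0.95 (adjusted p = 0.00529) and SERTAD1 by 0.39, whereas TP53INP1, PHLDA3 (-0.41) and CCNG1 (-0.38) were lower. PHLDA3 and SERTAD1 were lost in 15 and 13 of 21 alternatives, and PMAIP1 and TP53INP1 without batch A (adjusted p = 0.0865 and 0.0955).

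Inflammatory genes gave 1 call among 24 cytokines and chemokines (4.17%, against 5.68% of all genes). CCL2, a monocyte attractant, read 8.76, 8.45 and 8.73 at 0 h and 9.29, 8.94 and 9.65 at 8 h (0.65 ± 0.14, adjusted p = 0.00891). It had been called higher at 2 h (1.03) and was called lower at 24 h (-0.68). IL6 (0.12, interval -0.48 to 0.71) and CXCL8 (0.50, interval -0.09 to 1.09), central secreted factors of senescent cells, did not pass, and their 0 h arrays alone spanned 7.76 to 8.91 and 9.77 to 11.67. LIF, a cytokine of the IL6 family, was 1.97 higher at 2 h and was called lower at 8 h than at 2 h (-1.38, adjusted p = 0.00130). Its 8 h change was 0.59 (adjusted p = 0.160). That change passed with only the 6 arrays of 0 h and 8 h (0.00349) but not with the arrays up to 24 h (0.0527). PTGS2, the inducible cyclooxygenase, was at 0.93 (adjusted p = 0.153). It did pass where only the arrays up to 24 h were fitted (0.00853) and without batch D (0.0176). Of 28 NF-kB pathway genes, 0 were higher and 2 lower (7.14%, against 5.68% of all genes called either way). The 2 were CEBPD (-0.96) and IRF1 (-0.74), transcription factors of inflammation, and both were lost without batch A (0.175 and 0.320).

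Metabolic and stress lists held scattered calls. The shares called were 8.82% for autophagy, 7.41% for the ATF4 and unfolded protein responses and 7.41% for glycolysis and hypoxia. They were 8.33% for cholesterol genes and 11.8% for heat shock genes, against 5.68% of all genes. Of 34 autophagy genes, ULK1, the kinase that starts autophagy, went from 10.44, 10.34 and 10.70 to 9.61, 9.19 and 9.79 (-0.96 ± 0.14, adjusted p = 0.000319), with a second probe at -0.83. GABARAPL1, an LC3-family protein, went from 11.22, 11.16 and 11.70 to 10.55, 10.26 and 10.57 (-0.90 ± 0.15, adjusted p = 0.00107). Both were apart from untreated cells and both calls were lost without batch A (0.0520 and 0.0807), and ATG101, a subunit of the ULK complex, was higher (0.31). STC2, a secreted stress-induced hormone (-0.81 ± 0.10, adjusted p = 4.83e-05), and ATF3 (-0.59) were called lower among 27 genes of the ATF4 and unfolded protein responses, with 0 higher. HK2, a hexokinase, and SLC2A3, a glucose transporter, rose by 0.65 and 0.49 among 27 glycolysis and hypoxia genes, with 0 lower. MSMO1 and STARD4 rose by 0.67 and 0.40 among 24 cholesterol genes. HSPA1A (-0.41) and HSPA1B (-0.44) were the 2 of 17 heat shock genes called lower. They are near-identical copies whose probes may read both. Without batch A, the STC2 call was kept and all other calls named in this paragraph were lost. Those of ATG101, HSPA1A, STARD4 and MSMO1 were lost in 8 to 11 of the alternatives.

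A pair of lists bears on 4-OHT as a ligand. Of 19 estrogen receptor targets, CCND1 and MYC were called higher and STC2 and SGK3 (-0.51) lower, with a median of 0.02. Together that is 21.1%, against 5.68% of all genes. Of 11 nuclear receptor and xenobiotic targets, 0 were higher and 2 lower (18.2%, against 3.02% of all genes). CYP1B1, a cytochrome P450 induced through the aryl hydrocarbon receptor, read 7.22, 6.95 and 6.66 at 0 h and was not above background on any 8 h array. It was at least 1.80-fold lower, taking the lowest signal above background as its 8 h level (adjusted p = 0.000367). HMOX1, heme oxygenase, fell by 0.84 (adjusted p = 0.0160). The calls of CCND1, SGK3 and HMOX1 were lost in 13, 6 and 5 of 21 alternatives. Without batch A those of MYC (adjusted p = 0.0807) and CYP1B1 (0.0593) were lost, and that of STC2 was kept. CCND1 and MYC are also members of the ERK output list. The part of the drug itself in any of these values was not tested.

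**Figure D4:**
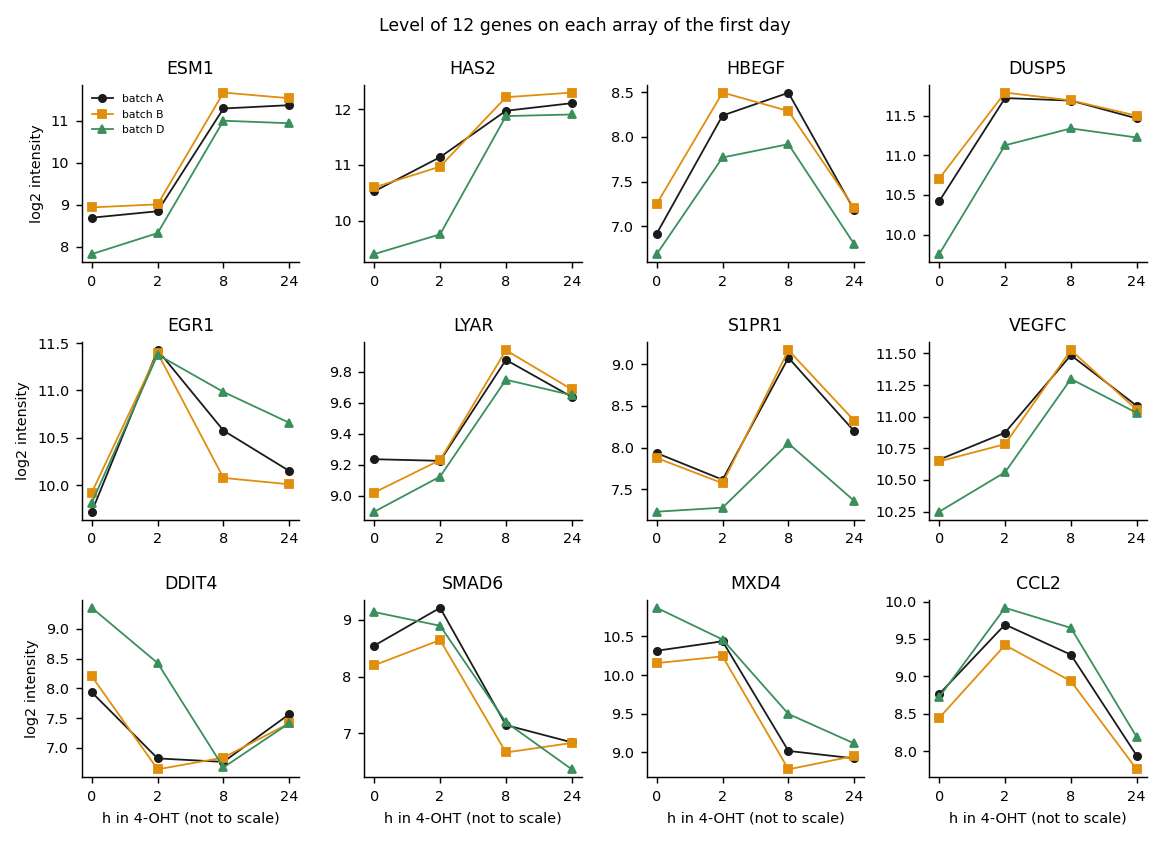
Log2 intensity of 12 genes on each array of 0, 2, 8 and 24 h, with 1 line per batch; the time axis is not to scale and each panel has its own level axis. ESM1, HAS2 and LYAR are high at 8 h and 24 h, HBEGF at 2 h and 8 h, EGR1 most at 2 h, and S1PR1 and VEGFC most at 8 h.

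The 8 h time point could be set against its neighbours. Of the 292 genes called higher at 8 h, 159 were also higher at 8 h than at 2 h in the direct test, 54 were higher and 23 lower than at 24 h. Of the 331 called lower, 193 were lower than at 2 h, 16 lower and 42 higher than at 24 h. These counts reuse the 8 h arrays that chose the genes, so they are a description and no separate support. The comparisons of 2 h and 24 h with untreated cells share the same 0 h arrays; in them 75 genes (0.684%) and 2116 genes (19.3%) were called. NTSR1 was the gene of the 12 largest rises furthest below its 24 h level, at -1.20 (adjusted p = 4.51e-06), and EDN1, RGS4, HBEGF and ANGPTL4 were 1.80, 1.33, 1.17 and 1.05 above theirs (adjusted p = 7.84e-05, 0.00169, 0.000406 and 0.000826).

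A small set stood apart at 8 h from 0 h, 2 h and 24 h alike: 23 genes were higher than at all 3 (0.21%) and 8 lower (0.0729%). S1PR1, a receptor for sphingosine 1-phosphate, read 7.93, 7.88 and 7.23 at 0 h, 7.62, 7.57 and 7.28 at 2 h, 9.08, 9.17 and 8.05 at 8 h and 8.20, 8.32 and 7.36 at 24 h. Within each batch its 8 h array was the highest, 1.08 ± 0.19 above 0 h, 1.27 above 2 h (adjusted p = 0.000484) and 0.80 above 24 h (adjusted p = 0.00990). Its call against 0 h was lost without batch A (adjusted p = 0.128) or batch B (0.0580). The next were KBTBD8 (1.04), a substrate adaptor of a ubiquitin ligase, MACIR (1.01), VEGFC, SH3BP5L (0.88) and JARID2 (0.83), a subunit of the Polycomb complex, of which KBTBD8 (adjusted p = 0.0527) and JARID2 (0.150) were lost without batch A. The 6 largest of the 8 lower genes were LRRC20 (-0.72), ZNF521 (-0.69), ZC3HAV1 (-0.66), an antiviral RNA-binding protein, FNBP1 (-0.59), ARMCX1 (-0.54) and AARS1 (-0.53), the alanyl-tRNA synthetase. Without batch A, the calls against 0 h of ZNF521 (adjusted p = 0.150), FNBP1 (0.167), ARMCX1 (0.0676) and AARS1 (0.142) were lost. Those of LRRC20 and ZC3HAV1 were kept. The 2 dimmer ZC3HAV1 probes gave -0.17 and -0.05, and the mean of its probes -0.29. VEGFC passed against 24 h only narrowly (0.38, adjusted p = 0.0497). The count of 31 depended on single batches: without batch A it was 0, without batch B 3, and with the arrays of 0 h to 24 h alone 73.

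**Figure D5:**
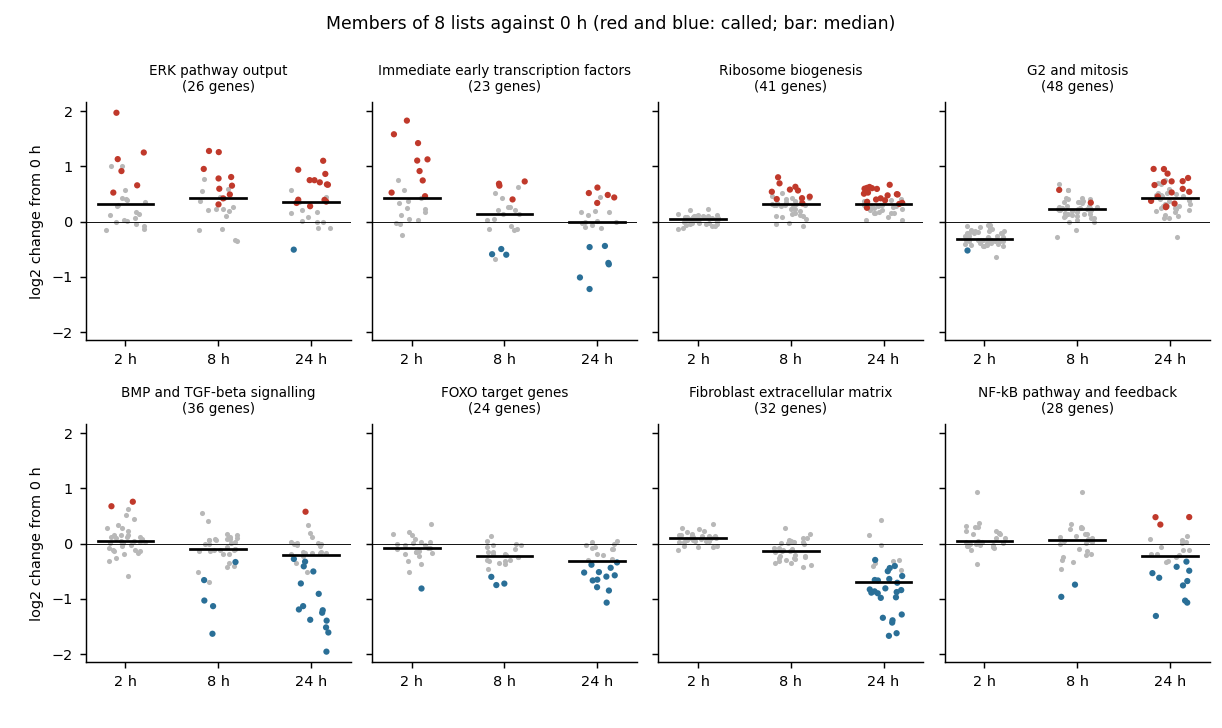
Each point is 1 tested member of a list and its log2 change from 0 h at 2, 8 or 24 h; all 3 times use the same 0 h arrays. Red and blue points were called higher and lower, grey points were not called, and bars are medians, which for the 26 ERK output genes are 0.33, 0.42 and 0.36 and for the 32 matrix genes 0.11, -0.12 and -0.69.

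Across all 30 lists, 79 of 636 distinct tested genes were called at 8 h (12.4%, against 5.68% of all genes). The lists were chosen with earlier results of these data in view, so that share is a description. The number of called genes was set in large part by which arrays shared the estimate of spread. It was 623 with all 24 arrays, 1171 with the 12 arrays of 0 h to 24 h and 1643 with the 6 arrays alone, of which 623 are the same genes in the last case. Without the arrays of batch A at all times it was 32, all 32 of them among the 623. With the arrays of 0 h to 24 h less those of batch A it was 328. Without batch B at all times it was 212 and without batch D 486.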

How the data were processed

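The data are Illumina human-6 v2 BeadChip measurements of total RNA, and the unit used is log2 intensity. The values of the main analysis are log2 intensities that the authors deposited in the series' value table, whose header gives no method; they run from 4.14 to 14.5, keep each array's order of the authors' deposited non-normalized log2 intensities (Spearman 1), and lie a median of 0.00274 from a quantile normalization of them. No sequencing depth applies, and 3 arrays per group limit the precision. Probes were named by the platform annotation, updated by Entrez ID (99.8% matched): 23687 had 1 symbol, 35 several and 24979 none. A probe was above background if its p was under 0.01 under a normal curve set by the array's signal mode and the spread below it, was kept if so on at least 3 arrays, and the brightest kept probe stood for its gene (1210 genes had more than 1).

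All 24 arrays were fitted with limma 3.58.1 in R 4.3.3, with 8 time point means and the batch letter as a block (14 residual and 6.72 prior degrees of freedom), and Benjamini-Hochberg adjustment over 10970 genes with a threshold of 0.05. The standard errors are limma's; nothing in the labels says more of the 3 replicates than that they are biological batches. The letters were taken to pair the samples because the comparison is defined by them and the labels give them at every time point. Same-lettered 0 h and 8 h arrays had residual correlations of 0.222, 0.312 and 0.512 in batches A, B and D. Different letters gave -0.433 to 0.2 for these times. Over all times the mean was 0.0373 for the same letter and -0.0174 for different ones, with the own letter highest for 10 of 24 arrays. The named genes are the 12 largest rises and falls, up to 4 called members per list, the 6 largest each way of the genes apart at 8 h, and a fixed set of 29 genes; further members are named where a list had few calls, after their values were seen. The members, gene lists and tests were chosen with earlier results of these data known. Alternatives were another normalization (normexp with an offset of 16), median centring, other filters, no block, fewer arrays, a mean of probes, an intensity trend and leaving out arrays or batches; leaving out a batch among the arrays of the first 24 h was added after seeing the data. The procedure was tested on simulated data. Promoters are the 250 bases before each start in RefSeq, GRCh38.p14; 9043 tested genes had an entry. Python 3.11.15, pandas 2.3.3 and matplotlib 3.10.9 were used for promoters and figures.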

Additional observations from a re-analysis of the deposited data

Results flagged for a closer look

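Of the 623 genes called at 8 h, 6 were called in the opposite direction at 24 h against the same 0 h arrays. Opposite calls already imply a difference between 8 h and 24 h, and passing the direct test of these times was part of the choice. The direct test is therefore given for its size and is no separate support. CCL2, a monocyte attractant, was 0.65 above untreated cells at 8 h and at -0.68 at 24 h, a difference of 1.33 ± 0.14 (adjusted p = 5.90e-06); its arrays read 9.29, 8.94 and 9.65 at 8 h and 7.94, 7.76 and 8.19 at 24 h, without overlap. BPGM, an enzyme of red cell glycolysis, was 0.99 higher at 8 h than at 24 h (0.49 and -0.50 against 0 h). RUNX1, a transcription factor, was 0.82 higher (0.39 and -0.43), ST3GAL1, a sialyltransferase, 0.83 higher (0.47 and -0.36), and SLC35G2 0.68 higher (0.36 and -0.32). STRADB, a pseudokinase partner of LKB1, went the other way, with a difference of -0.63 (-0.28 and 0.35). For CCL2 the call at 8 h was lost without batch A, B or D (adjusted p = 0.0520, 0.0857 and 0.0699).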

How the results depend on the processing

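The counts of called genes depended on the arrays fitted. With only the 12 arrays of 0 h to 24 h, 1171 genes were called at 8 h against 0 h, 1288 against 2 h, 1454 against 24 h and 73 apart from all 3, with 157 list members, and with only the 6 arrays 1643 genes and 222 list members. Leaving out single arrays or batches, also among the early arrays, gave 32 to 1176 genes against 0 h (623 reported), 4 to 2230 against 2 h (704), 145 to 1829 against 24 h (922), 0 to 145 apart (31) and 8 to 161 list members (79). The lowest of each came without batch A and the highest without batch D among the 12 early arrays; the cause was not tested. Without the block that pairs the batches 573 genes were called, 555 of them among the 623; that fit lost the calls of 3 named genes (E2F7, CCL2 and ATF3) and changed no other named call. The counts from another normalization (563), median centring (632), no filter (557), genes above background on all arrays (559), a mean of probes (598) and an intensity trend (593) were within 1.5 times. Of 88 named calls, 22 held in all 21 alternatives. Without batch A at all times 66 were lost, and without it among the arrays of 0 h to 24 h 21. No called gene changed sign. Genes that were not called did change sign when arrays were left out: HRAS (-0.0598 to 0.0434), SMAD7 (-0.23 to 0.0554), IL6 (-0.0215 to 0.30), CXCL8 (-0.0256 to 0.90), CDKN2A (-0.13 to 0.15), VEGFA (-0.10 to 0.10) and CD44 (-0.0613 to 0.0157, and 0.0510 as a mean of its probes). Signal over background limits what can be said of low genes.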
